A study of Mus musculus with 173 samples.

Results

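A set of 10 genes that mark monoamine and cholinergic neurons was followed through 5 brain regions of Q175 and wild-type mice. They were chosen by name as genes of transmitter synthesis and transport: Th, Dbh, Slc6a2, Slc6a4, Tph2, Fev, Slc18a2, Chat, Slc18a3 and Slc5a7. Of these 10 genes, 9 were matched to an entry among the 38561 Ensembl genes of the deposited tables. Slc18a3, the vesicular acetylcholine transporter, was not analysed here. In the GENCODE mouse annotation its gene lies inside Chat, and which annotation the authors counted on is not given in the sources used here. Whether reads of Slc18a3 were counted in Chat was not tested.

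Monoamine neurons are few in number and sit in small nuclei, from which their axons reach most of the brain. Noradrenaline neurons are gathered in the locus coeruleus and other groups of the brainstem, serotonin neurons in the raphe nuclei of the brainstem, and dopamine neurons in the midbrain and hypothalamus. Cholinergic neurons include the motor neurons of the brainstem cranial nerve nuclei, brainstem tegmental groups, the habenula, and basal forebrain groups that project to cortex and hippocampus. Tissue RNA of this kind mainly reports the cell bodies, so a dissection that holds the nucleus shows the transcript and a dissection that holds only its axons shows little of it.

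The libraries were polyadenylated RNA from the brainstem, cerebellum, corpus callosum, hippocampus and hypothalamus/thalamus of 16 C57BL/6 mice aged 6 months. The 8 Q175 mice were heterozygous for a knock-in allele of the mouse huntingtin gene Htt with an expanded CAG repeat, the kind of mutation that causes Huntington's disease, and the 8 controls were wild type. Each genotype was represented by 4 females and 4 males. These regions hold 80 of the 173 libraries of a survey of 11 tissues, with 1 library of each animal in each region. The labels give Q175 cage mates for the Q175 animals and Q20 cage mates, from a second knock-in line, for the wild-type animals, while the series text calls the controls littermates. Genotype, housing and colony cannot be told apart.

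To show what lies next to the genes on which the genotype results turn, the 250 bases before the transcription start of 5 of them are printed here (RefSeq, GRCm38.p6, read 5′ to 3′ on the strand of the gene). Capitals mark matches, on either strand, to 4 short motifs chosen after the sequences were seen: TGACGTCA (the cyclic AMP response element), CGGAA (the core bound by ETS factors), TATAAA (the TATA box) and TAATTA (a homeodomain core).
Fev (chr1:74885409-74885658, minus strand): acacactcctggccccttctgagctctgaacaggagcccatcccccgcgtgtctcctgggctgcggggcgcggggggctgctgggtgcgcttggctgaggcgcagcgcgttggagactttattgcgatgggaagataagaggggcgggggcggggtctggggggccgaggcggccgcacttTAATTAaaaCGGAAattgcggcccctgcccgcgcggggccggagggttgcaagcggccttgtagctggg
Tph2 (chr10:115185023-115185272, minus strand): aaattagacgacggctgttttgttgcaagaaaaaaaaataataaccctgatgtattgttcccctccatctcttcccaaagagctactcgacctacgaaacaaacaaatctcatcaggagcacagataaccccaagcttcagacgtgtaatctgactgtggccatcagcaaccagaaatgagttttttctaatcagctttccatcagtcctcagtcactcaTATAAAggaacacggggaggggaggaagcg
Slc6a4 (chr11:76998347-76998596, plus strand): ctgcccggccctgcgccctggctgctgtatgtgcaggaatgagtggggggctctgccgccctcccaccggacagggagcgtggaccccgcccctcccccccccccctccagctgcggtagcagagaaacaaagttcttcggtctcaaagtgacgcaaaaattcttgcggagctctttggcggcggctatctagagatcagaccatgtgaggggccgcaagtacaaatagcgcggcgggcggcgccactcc
Th (chr7:142899996-142900245, minus strand): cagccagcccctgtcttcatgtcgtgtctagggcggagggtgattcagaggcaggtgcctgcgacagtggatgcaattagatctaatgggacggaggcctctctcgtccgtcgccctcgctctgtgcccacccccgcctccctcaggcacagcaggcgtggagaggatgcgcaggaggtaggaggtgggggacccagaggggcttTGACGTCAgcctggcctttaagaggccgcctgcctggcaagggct
Dbh (chr2:27165257-27165506, plus strand): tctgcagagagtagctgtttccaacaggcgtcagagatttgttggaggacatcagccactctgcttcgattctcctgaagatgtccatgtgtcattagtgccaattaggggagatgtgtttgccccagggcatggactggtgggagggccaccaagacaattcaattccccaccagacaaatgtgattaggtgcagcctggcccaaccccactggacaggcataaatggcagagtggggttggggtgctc
The Fev window held 1 TAATTA and 1 CGGAA, with their first bases 69 and 60 bases before the start. The Tph2 window held 1 TATAAA, 30 bases before the start, and the Th window held 1 TGACGTCA, 45 bases before it. None of the 4 motifs was in the Slc6a4 or the Dbh window. Over the 32851 promoter windows of the same length in that table, 1.5% held TGACGTCA, 25.2% CGGAA, 12.4% TATAAA and 4.8% TAATTA. Promoters were matched for 9 of the 10 genes, all but Slc6a2. The 3 serotonin neuron genes shared none of these motifs with one another, and their base composition also differed, with 68.0% G and C in the Fev window, 64.8% in that of Slc6a4 and 43.6% in that of Tph2.

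The 80 brain libraries held 27978166 to 39713633 estimated counts each. Values are CPM (counts in each library scaled to a fixed total) after TMM scaling over the 80 libraries, and a gene is said to have passed the test at a Benjamini-Hochberg adjusted p under 0.05 in edgeR's quasi-likelihood test over all genes tested. Htt, the modified gene, was lower in Q175 mice in 5 of 5 regions, and the fall passed the test in cerebellum (log2 change -0.21 ± 0.042 SE, adjusted p = 0.00182) and hippocampus (-0.58 ± 0.15, adjusted p = 0.0387). In some libraries values fall with transcript length. Among them were those with the lowest Q175 Htt in hippocampus (85.6 CPM, female 3) and hypothalamus/thalamus (74.3 CPM, female 2). The library with the lowest wild-type Htt in brainstem (94.9 CPM, female 3) was also among them. In 1 Q175 male the level of Abhd1, a gene near Htt that stood higher in the other 7 Q175 mice, lay within the wild-type range in all 5 brain regions. This animal gave brainstem Q175 male 2, hypothalamus/thalamus Q175 male 2, hippocampus Q175 male 1, and male 4 of cerebellum and corpus callosum. Its label was kept. The brainstem changes of the serotonin neuron genes and Slc18a2 and the region by genotype test are also given without it. The calls of Th in cerebellum and Dbh in hippocampus were refitted without each library in turn. In bulk tissue, fewer cells of a type and less RNA per cell cannot be told apart.

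In wild-type mice, 7 of the 9 genes had their highest level in brainstem, and Th and Slc18a2 had theirs in hypothalamus/thalamus. Tyrosine hydroxylase, encoded by Th, makes the precursor of dopamine and noradrenaline. It stood at 32.2 ± 10.1 CPM (SD, n = 8) in hypothalamus/thalamus, 9.16 ± 1.45 in brainstem, 8.91 ± 0.875 in cerebellum, 2.29 ± 0.817 in corpus callosum and 0.636 ± 0.115 in hippocampus. Every step in this order passed the test except that from brainstem to cerebellum (log2 difference 0.11 ± 0.15 SE, adjusted p = 0.527). Dbh, the enzyme that turns dopamine into noradrenaline, held 6.63 ± 1.95 CPM in brainstem, 0.862 ± 0.235 in hippocampus, 0.349 ± 0.0979 in corpus callosum and 0.0884 and 0.037 in hypothalamus/thalamus and cerebellum. Slc6a2, the noradrenaline transporter, held 2.39 ± 0.695 CPM in brainstem and 0.382 ± 0.201 in corpus callosum. It stood at 0.102, 0.0999 and 0.0734 CPM in cerebellum, hypothalamus/thalamus and hippocampus, which were not distinguished from one another in this order (adjusted p = 0.944 and 0.559). The cerebellum held Th at a level not distinguished from that of brainstem, while Dbh there reached at most 4 estimated counts in any wild-type library.

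The serotonin neuron genes were concentrated in brainstem. Tph2, the rate-limiting enzyme of serotonin synthesis in neurons, stood at 21.7 ± 8.76 CPM in brainstem and at 0.469 to 1.5 CPM on average in the 4 other regions. Of those, hippocampus was highest with 1.5 ± 0.298 CPM and differed from corpus callosum (log2 difference 0.91 ± 0.28, adjusted p = 0.00368). Slc6a4, the serotonin transporter, stood at 14.7 ± 5.93 CPM in brainstem and at 0.174 ± 0.104 in hippocampus, the next region, a log2 difference of 6.34 ± 0.28 (adjusted p = 1.37e-19). The other 3 steps in its order did not pass (adjusted p = 0.951, 0.23 and 0.0998). Fev, the ETS transcription factor of serotonin neurons, stood at 1.03 ± 0.333 CPM in brainstem and 0.18 ± 0.0555 in cerebellum, a log2 difference of 2.55 ± 0.30 (adjusted p = 3.80e-09). In brainstem its wild-type libraries held 19 to 52 estimated counts, so its precision is limited by counting. Slc18a2, the vesicular transporter shared by all monoamine neurons, was highest in hypothalamus/thalamus with 43.4 ± 10.7 CPM, followed by brainstem with 26.2 ± 7.43, hippocampus with 7.39 ± 0.666, corpus callosum with 4.83 ± 0.617 and cerebellum with 4.09 ± 0.345. All 4 steps of that order passed the test, the closest being corpus callosum against cerebellum (adjusted p = 0.0247).

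Chat, which makes acetylcholine, stood at 19.5 ± 6.08 CPM in brainstem, 6.09 ± 2.33 in hypothalamus/thalamus and 0.365 ± 0.262 in corpus callosum. Slc5a7, the high-affinity choline transporter, followed the same order with 75.1 ± 26.2 CPM in brainstem, 15.8 ± 5.76 in hypothalamus/thalamus, 2.65 ± 0.616 in corpus callosum, 0.913 ± 0.235 in hippocampus and 0.346 ± 0.123 in cerebellum. All 4 steps of Slc5a7 passed the test, and 3 of those of Chat did, hippocampus and cerebellum not being distinguished at 0.0564 and 0.0483 CPM (adjusted p = 0.818). Per transcript length, in FPKM as the authors deposited it, brainstem held more Slc5a7 (14.6 ± 4.99) than Tph2 (8.34 ± 3.31), Chat (6.98 ± 2.14), Slc18a2 (6.96 ± 1.93), Slc6a4 (5.47 ± 2.18), Th (5.08 ± 0.807), Dbh (2.62 ± 0.772), Fev (0.764 ± 0.26) and Slc6a2 (0.402 ± 0.123), values given without a test. Among neighbours in the order of regions, 25 of 36 steps passed the test over the 9 genes.

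**Figure D1:**
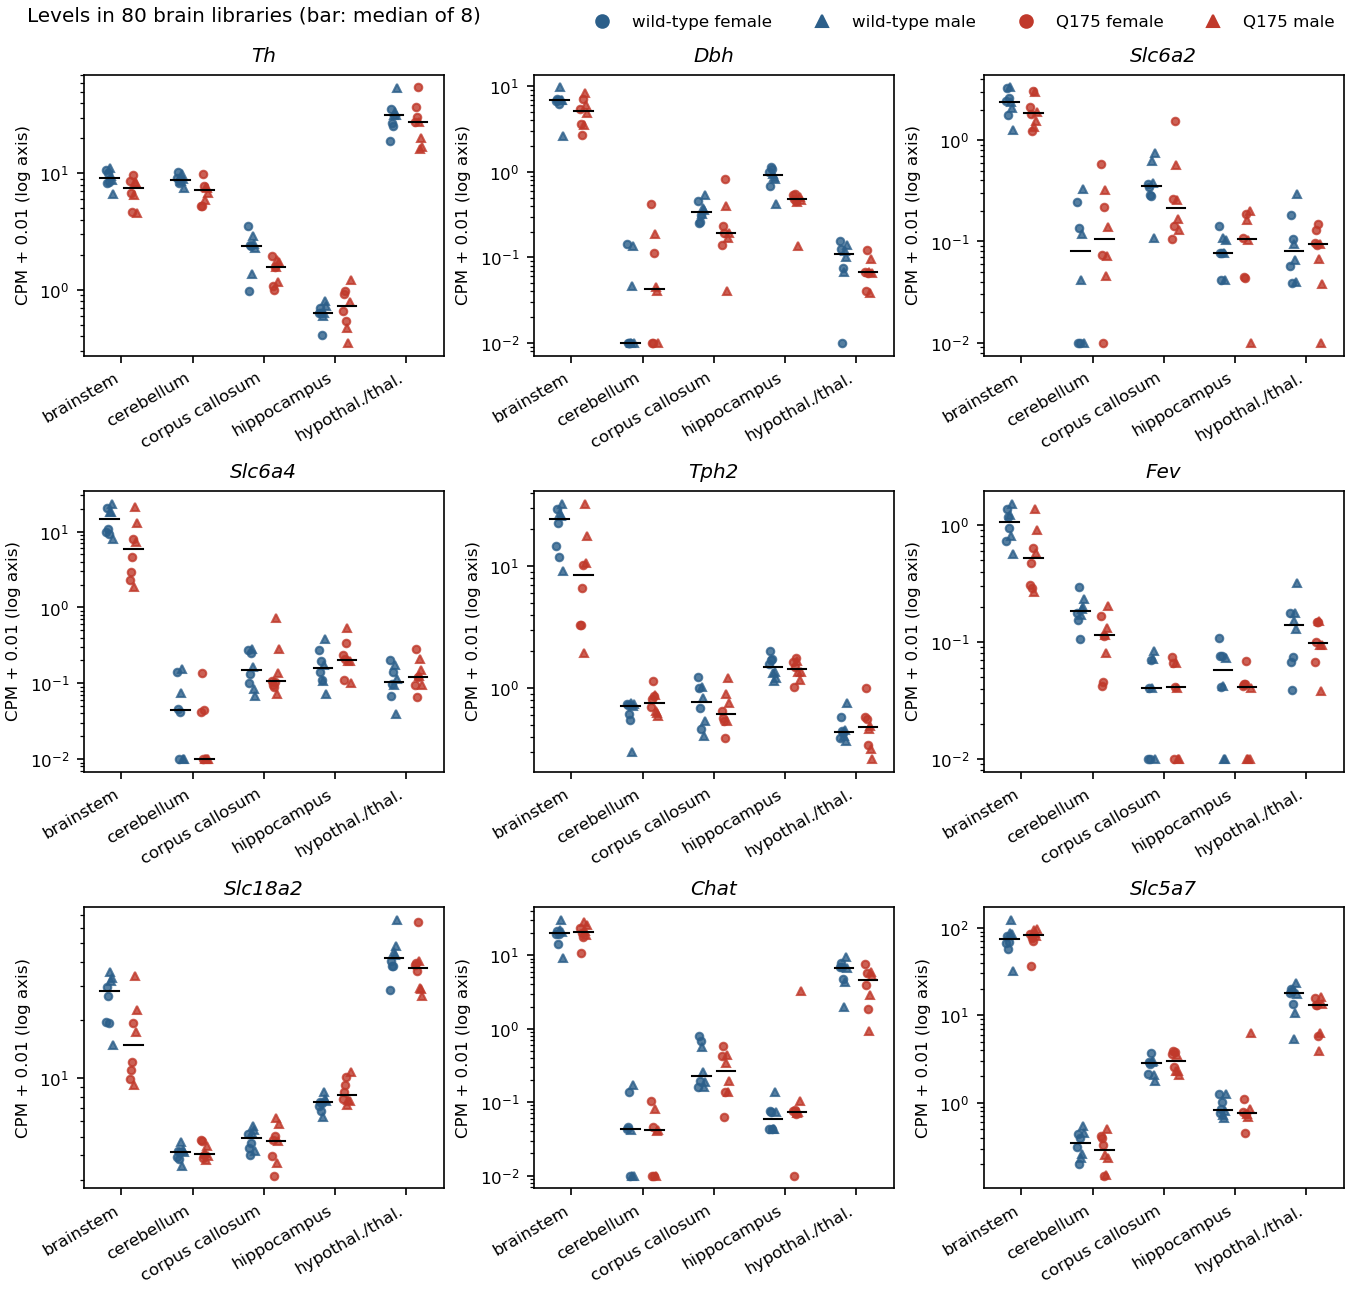
Level of each of the 9 genes in the 80 brain libraries, as CPM plus 0.01 on a log axis, by region, genotype (blue wild-type, red Q175) and sex (circles females, triangles males), with a bar at the median of 8 libraries. Th and Slc18a2 are highest in hypothalamus/thalamus and the other 7 genes in brainstem, and 1 hippocampal Q175 male stands apart for Chat (3.29 CPM) and Slc5a7 (6.24 CPM).

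Over all 10 pairs of regions, 77 of 90 tests of these genes passed. Most genes of the genome also differ between these dissections, so the counts are read against that share. Brainstem differed from cerebellum in 8 of 9 genes (79.3% of all genes passed), from corpus callosum in 9 of 9 (77.4%), from hippocampus in 9 of 9 (74.6%) and from hypothalamus/thalamus in 9 of 9 (58.5%). Cerebellum differed from corpus callosum in 8 (80.2%), from hippocampus in 7 (77.0%) and from hypothalamus/thalamus in 5 (77.5%). Corpus callosum differed from hippocampus in 7 (76.7%) and from hypothalamus/thalamus in 8 (76.8%), and hippocampus from hypothalamus/thalamus in 7 (68.0%). With 9 genes, these shares are not read as a result about the genes. Every passing gene was higher in brainstem than in cerebellum, corpus callosum and hippocampus.

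In brainstem, the serotonin neuron genes and Slc18a2 stood lower in most Q175 mice, but no gene of the 9 tested passed the test over all genes (3.07% of 16563 genes passed). Tph2 ran from 1.95 to 32.2 CPM in Q175 libraries, with a median of 8.51, and from 9.1 to 32.5 in wild-type libraries, with a median of 24.3. Of the 8 Q175 libraries, 4 lay below every wild-type library and 1, male 2, lay just under the highest wild-type library; the other 7 reached at most 17.6 CPM. The log2 change of Tph2 was -1.14 ± 0.47 (SE; adjusted p = 0.283 in edgeR). Slc6a4 ran from 1.85 to 21.2 CPM (median 5.9) in Q175 and from 8.04 to 23.3 (median 14.5) in wild type, with 6 of 8 Q175 libraries below every wild-type one. Its change was -1.04 ± 0.42 (adjusted p = 0.264). Fev ran from 0.256 to 1.35 CPM (median 0.518) against 0.558 to 1.51 (median 1.05), with a change of -0.83 ± 0.30 (adjusted p = 0.195). For Slc18a2 the range was 9.26 to 33.8 CPM (median 14.8) against 14.9 to 35.2 (median 28.1), with a change of -0.66 ± 0.25 (adjusted p = 0.234). For each of these 4 genes 7 of 8 Q175 libraries lay below the wild-type median, the exception being male 2.

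**Figure D2:**
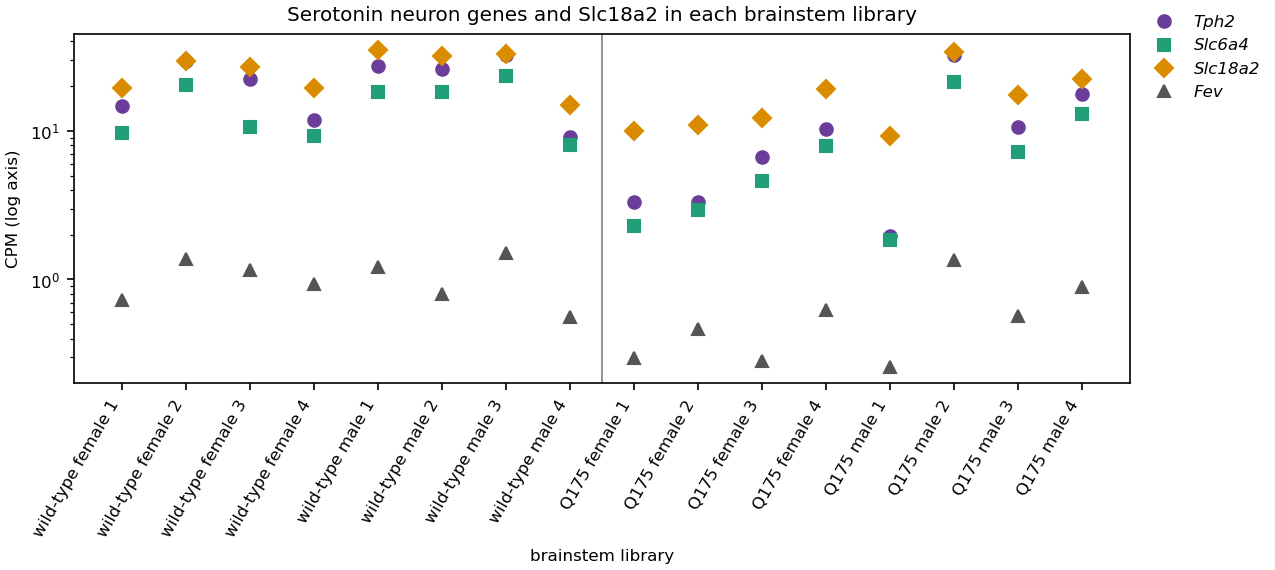
CPM (log axis) of Tph2, Slc6a4, Slc18a2 and Fev in each of the 16 brainstem libraries, wild type on the left of the line and Q175 on the right. The 4 genes move up and down together from library to library, from 1.95 CPM of Tph2 in Q175 male 1 to 32.2 in Q175 male 2 and 32.5 in wild-type male 3.

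Q175 male 2 is the library of the animal with a wild-type level of Abhd1. It also had the lowest summed oligodendrocyte markers of the region (13824 CPM, the others at least 15962) and the lowest astrocyte markers (7197, the others at least 7267), and its meningeal markers stood at 332 CPM. The part of these in its serotonin gene levels was not tested. Without it Fev passed the test (-1.08 ± 0.28, adjusted p = 0.0399, with 3.16% of all genes passing), while Tph2 (-1.49 ± 0.41), Slc6a4 (-1.34 ± 0.37) and Slc18a2 (-0.83 ± 0.22) stood at adjusted p = 0.0762, 0.0762 and 0.0636. This setting was chosen with the values of that library in view. In the 4 Q175 females against the 4 wild-type females, a comparison added after the data were seen, the values of the genotypes did not overlap for these 4 genes: Tph2 held 3.3 to 10.3 against 11.9 to 29.6 CPM, Slc6a4 2.3 to 7.94 against 9.18 to 20.2, Fev 0.282 to 0.622 against 0.724 to 1.37, and Slc18a2 9.95 to 19.2 against 19.4 to 29.5. All Q175 females lay below all wild-type females for 4 of the 9 genes, and for 2.28% of all genes tested. These 4 genes varied together between brainstem libraries, so they do not count as 4 separate results. In females alone the log2 changes were -1.73 ± 0.40 for Tph2, -1.48 ± 0.38 for Slc6a4, -1.33 ± 0.31 for Fev and -0.86 ± 0.21 for Slc18a2, none of which passed (adjusted p = 0.155, 0.221, 0.159 and 0.201 in edgeR, with 0.258% of genes passing). In males, no gene of the 9 had all Q175 libraries below all wild-type ones, as 3.37% of all genes did.

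The noradrenaline genes had smaller fitted changes in brainstem. Th ran from 4.57 to 9.69 CPM (median 7.54) in Q175 and from 6.6 to 11 (median 9.09) in wild-type libraries, a change of -0.35 ± 0.15 (adjusted p = 0.301 in edgeR). Dbh ran from 2.72 to 8.29 CPM against 2.58 to 9.72, with a change of -0.35 ± 0.24 (adjusted p = 0.511), and Slc6a2 from 1.23 to 3.05 against 1.26 to 3.31, with a change of -0.26 ± 0.22 (adjusted p = 0.582). The cholinergic genes lay close to 0 change: Chat held 10.8 to 28 CPM against 9.16 to 30.1 CPM (0.09 ± 0.21, adjusted p = 0.847) and Slc5a7 36.3 to 96.6 against 32.4 to 122.0 (0.05 ± 0.22, adjusted p = 0.926). The signs of the cholinergic changes turned without wild-type male 4 (-0.03 for Chat and -0.08 for Slc5a7), the wild-type library with the lowest level of each of the 9 genes. In that library the summed oligodendrocyte markers were the highest of the region, at 23235 CPM, and their part in its low values was not tested. At an unadjusted p under 0.05 in edgeR, 5 of the 9 genes counted, as did 14.2% of all genes. Among the 5 were Tph2, Slc6a4, Fev and Slc18a2, which varied together between libraries and are not separate results. The median log2 change was -0.35 over the 9 genes and -0.0021 over all genes tested.

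Other markers moved with genotype in the same brainstem libraries. Of the 10 oligodendrocyte markers 6 fell, and their summed level was 13824 to 18719 CPM in Q175 against 17418 to 23235 in wild type. Of the 8 astrocyte markers 3 fell, with sums of 7197 to 8083 against 8323 to 9055 CPM. None of the 10 pan-neuronal markers passed (8825 to 9959 against 8725 to 9855 CPM), and none of 8 markers of hindbrain neurons did (959 to 1135 against 766 to 1053 CPM). Of the 10 hypothalamic peptide markers, among them Trh and Gal, 5 were tested in brainstem and none passed. Their sum ran from 14.9 to 44.2 CPM (median 21.1) in Q175 and from 28.6 to 47.7 (median 33.9) in wild type. Within Q175 that sum was lowest in male 1 (14.9 CPM) and highest in male 2 (44.2 CPM), the libraries with the lowest and the highest Tph2. In wild-type male 4, the wild-type library with the lowest Tph2 (9.1 CPM), the sum was 36.9 CPM, above the wild-type median. No marker of these lists was at 0 in all brainstem libraries, and the part of these markers in the serotonin gene levels was not tested.

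In cerebellum, Th fell in Q175 mice. It held 5.22 to 9.81 CPM (median 7.16) in Q175 libraries and 7.48 to 10.2 (median 8.84) in wild-type ones, with means of 6.99 ± 1.54 and 8.91 ± 0.875 CPM (SD, n = 8). The groups overlapped: 4 Q175 libraries lay below every wild-type one, and Q175 female 3 with 9.81 CPM lay near the top of the wild-type range. The change was -0.35 ± 0.11 (adjusted p = 0.0356 in edgeR), and it was 1 of 3 genes called among those tested, where 16.1% of 16020 genes were called. It did not hold when single libraries were left out, in 10 of 16 cases (adjusted p from 0.05 to 0.0729): Q175 females 1 and 2, Q175 males 1 and 4, wild-type females 1, 2 and 4, and wild-type males 1, 2 and 3, with changes from -0.30 to -0.36. In the mouse cerebellum, Th transcript is known from Purkinje cells. Of the 8 cerebellar neuron markers 4 passed, all lower, and their sum was 5966 to 6738 CPM in Q175 and 6962 to 7591 in wild type. Of the 10 pan-neuronal markers 3 rose and 5 fell. All 10 oligodendrocyte markers fell as well (3249 to 4446 against 4679 to 5664 CPM), as did 5 of 8 astrocyte markers. The part of any of these neuronal or glial markers in the fall of Th was not tested. Tph2 (0.28 ± 0.18, adjusted p = 0.334) and Slc18a2 (0.05 ± 0.075, adjusted p = 0.75) did not pass, and the other 6 genes were too low to be tested there.

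In hippocampus, Dbh fell in Q175 mice, at a level near the lower end of what these libraries resolve. It held 0.125 to 0.538 CPM (median 0.469) in Q175 libraries and 0.409 to 1.14 (median 0.903) in wild-type ones, or 4 to 16 and 13 to 36 estimated counts. The lowest wild-type library, male 4, fell inside the Q175 range, and the other 7 wild-type libraries lay above every Q175 library. The change was -0.98 ± 0.22 (adjusted p = 0.0173 in edgeR), and Dbh was the 1 gene called of 5 tested, where 4.56% of 16298 genes were called. It was called without each of the 16 libraries in turn (adjusted p from 0.0087 to 0.0387). It was not called with the replicate number of the titles as a block (adjusted p = 0.0657) or with the form of the library name as a term (adjusted p = 0.051), at changes of -0.97 and -0.99. On log2(FPKM + 1), a scale that understates low genes, the change was -0.18, and on log2(FPKM + 0.1) it was -0.66 (limma, adjusted p = 0.018 and 0.0235). Noradrenaline fibres of the locus coeruleus reach the hippocampus, and the region is not known for cell bodies of that kind. Th, which those neurons also express, held 0.343 to 1.2 CPM against 0.401 to 0.79 and did not pass (0.20 ± 0.23, adjusted p = 0.597), and Slc6a2 stood at 0 to 6 estimated counts in the 16 libraries and was too low to be tested.

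**Figure D3:**
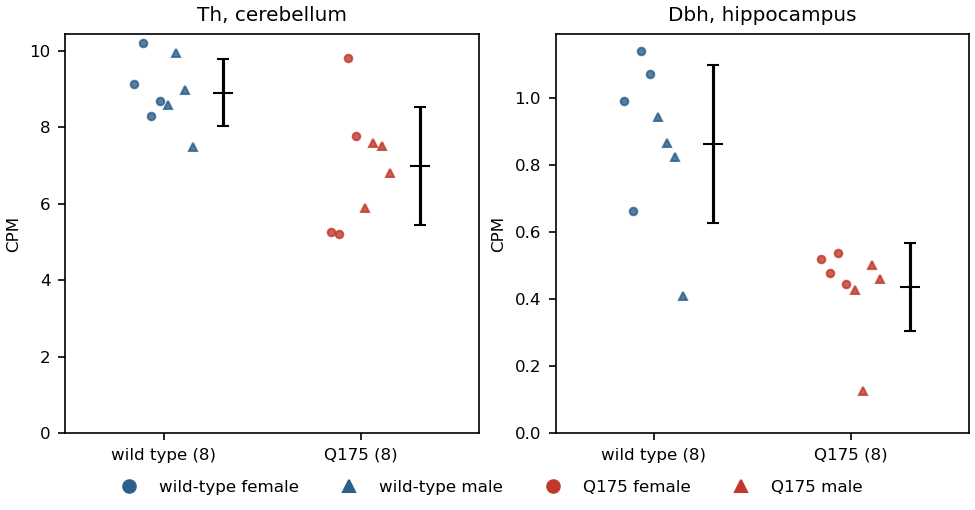
CPM of Th in cerebellum and of Dbh in hippocampus in each library (circles females, triangles males), with the mean and SD of 8 libraries at the side and axes from 0. The 4 lowest Th libraries are Q175 (5.22 to 6.81 CPM), and 7 of 8 wild-type libraries lie above every Q175 library for Dbh.

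The other hippocampal genes did not pass. Tph2 held 1.02 to 1.75 CPM against 1.13 to 1.99 (-0.06 ± 0.12, adjusted p = 0.757), and Slc18a2 7.24 to 10.8 against 6.27 to 8.47 (0.22 ± 0.089, adjusted p = 0.162). Slc5a7 held 0.437 to 6.24 CPM against 0.665 to 1.26 (0.54 ± 0.48, adjusted p = 0.481), and without Q175 male 4 its change was -0.27. In that library Slc5a7 stood at 6.24 CPM, against at most 1.09 in the other Q175 ones, and Chat at 3.29 CPM, or 107 estimated counts, against at most 4 in any wild-type library. Among genes listed for cholinergic neuron identity, these were also highest in that library: Lhx8 (2.74 against at most 0.152 CPM in the others), Isl1 (2.86 against 0.548), Slc10a4 (4.06 against 0.945) and Ngfr (5.75 against 2.31). Lhx8 and Isl1 are known from cholinergic neurons of the basal forebrain. The excitatory forebrain neuron markers fell in Q175 hippocampus in 5 of 8 cases, with sums of 4970 to 6110 against 6349 to 7336 CPM, and their part in the level of Dbh was not tested.

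In hypothalamus/thalamus, no gene of 5 passed (0.574% of 16739 genes did). Slc5a7 held 3.93 to 16 CPM (median 13.1) in Q175 and 5.36 to 23.3 (median 17.8) in wild type, a change of -0.54 ± 0.31 (adjusted p = 0.442 in edgeR), and all 8 Q175 libraries lay below the wild-type median. Chat held 0.911 to 7.55 CPM (median 4.55) against 1.96 to 9.4 (median 6.75), a change of -0.53 ± 0.36 (adjusted p = 0.517). Without the libraries in which values fall with transcript length, 4 of this region, the changes of Slc5a7 and Chat were -0.85 and -0.76 and still did not pass (adjusted p = 0.29 and 0.433). Th held 16.1 to 54.6 CPM (median 27.5) against 18.9 to 53.5 (median 31.8), a change of -0.21 ± 0.25 (adjusted p = 0.693), and Slc18a2 26.6 to 64.2 (median 37.1) against 28.6 to 65.5 (median 41.8), a change of -0.20 ± 0.18 (adjusted p = 0.616). The fitted difference of Tph2 was 0.04 ± 0.25 (adjusted p = 0.948). Markers of oligodendrocytes (6 of 10) and astrocytes (4 of 8) fell in this region, and none of the 10 hypothalamic peptide markers passed, whose sums ran from 537 to 891 against 435 to 846 CPM.

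In corpus callosum, none of 4 genes passed (0.0544% of 16540 genes did). Th held 0.996 to 1.94 CPM (median 1.57) in Q175 and 0.972 to 3.56 (median 2.39) in wild type, a change of -0.64 ± 0.24 (adjusted p = 0.219 in edgeR). All 8 Q175 libraries lay below the wild-type median, and 6 of 8 wild-type libraries lay above every Q175 one. Slc5a7 (0.17 ± 0.16), Tph2 (-0.18 ± 0.27) and Slc18a2 (-0.06 ± 0.13) did not pass either, with adjusted p = 0.742 for Tph2 and 0.835 for Slc18a2. Corpus callosum is a fibre tract with few neurons, and neuronal markers varied widely between these libraries: the sum of pan-neuronal markers lay between 877 and 3899 CPM for Q175 and between 1993 and 4453 for wild type. The sum of excitatory forebrain neuron markers lay between 353 and 2429 against 1209 and 3159 CPM, and their part in the level of Th was not tested. Over the 9 genes and 5 regions, 26 tests were possible and 2 passed, both falls. These were Th in cerebellum, where 16.1% of all genes passed, and Dbh in hippocampus, where 4.56% did. In the other regions the share of all genes was 3.07% (brainstem), 0.574% (hypothalamus/thalamus) and 0.0544% (corpus callosum). The count is not read as a result about the genes.

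**Figure D4:**
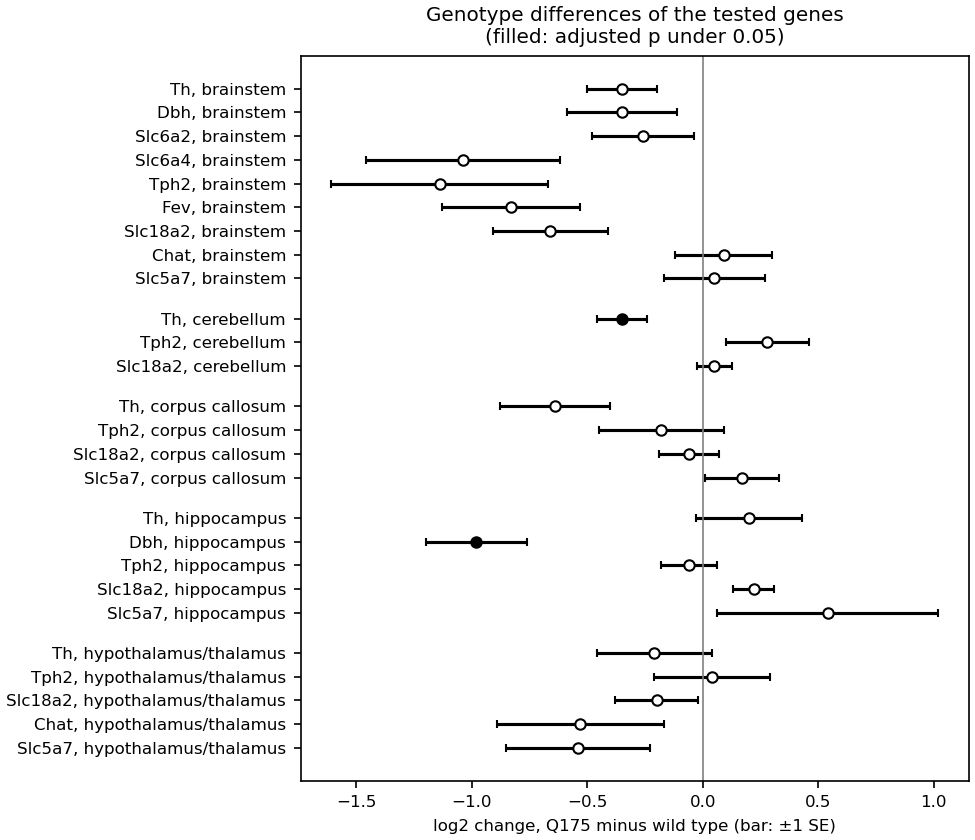
Log2 change (Q175 minus wild type) with 1 SE for each gene tested in each region, from edgeR with sex as a term. The filled points, Th in cerebellum (-0.35) and Dbh in hippocampus (-0.98), passed at an adjusted p under 0.05, and the most negative fitted changes that did not pass are Tph2 and Slc6a4 in brainstem (-1.14 and -1.04).

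Whether the response to genotype differed between regions was tested in 1 fit of the 80 libraries. None of the 9 genes passed (14.1% of 18153 genes did, limma voom), with Slc18a2 closest (adjusted p = 0.0762), then Chat (0.167), Slc5a7 (0.191), Dbh (0.198) and Tph2 (0.214). Without the Q175 male with a wild-type level of Abhd1, Slc18a2 (adjusted p = 0.0067) and Tph2 (adjusted p = 0.0448) passed, 2 of 9 where 21.6% of all genes passed, a share near that of the genes. In brainstem the change of Slc18a2 was -0.66 ± 0.25 and in hippocampus 0.22 ± 0.089, and for Tph2 the changes ran from -1.14 ± 0.47 in brainstem to 0.28 ± 0.18 in cerebellum.

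Whether the response differed between the sexes was tested in each region, and no gene passed in any of the 5: the share of all genes passing was 0% in brainstem, cerebellum, corpus callosum, hippocampus and hypothalamus/thalamus alike (edgeR). In those fits 528, 535, 380, 3532 and 1228 genes had an unadjusted p under 0.05, and DESeq2 called 0, 0, 0, 57 and 25 genes. In hippocampus the libraries whose values fall with transcript length were all from Q175 females. In hypothalamus/thalamus they came from Q175 mice of both sexes and a wild-type male. The part of these libraries in the counts was not tested. Among these genes, Th and Slc18a2 in hypothalamus/thalamus had the largest fitted differences relative to their SE. Th held 27.5 to 54.6 CPM in Q175 females against 18.9 to 35.5 in wild-type females, and 16.1 to 27.5 in Q175 males against 31.8 to 53.5 in wild-type males. The male ranges did not overlap and the female ranges did. The change of Th was 0.48 ± 0.24 in females and -0.90 ± 0.21 in males, a difference of -1.38 ± 0.35 (adjusted p = 0.448). Slc18a2 held 35.7 to 64.2 against 28.6 to 40.4 CPM in females and 26.6 to 40.5 against 43.2 to 65.5 in males, a difference of -0.98 ± 0.27 (adjusted p = 0.492). In males all Q175 libraries lay below all wild-type ones for 2 of the 5 genes and for 3.51% of all genes. The 2 genes, Th and Slc18a2, varied together between libraries of this region, so they are not separate results. In males alone neither passed (adjusted p = 0.156 for Th and 0.159 for Slc18a2 in edgeR, with 0.387% of genes passing). The lowest Th value, 16.1 CPM, is that of Q175 male 2, the animal with a wild-type level of Abhd1. The comparisons of the sexes are not given without it.

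Genes of 1 transmitter system varied together between brainstem libraries. Over the 16 libraries of brainstem and of hypothalamus/thalamus, 34 pairs of genes with a mean of at least 1 CPM were compared on log2(CPM + 1). Of these, 15 passed a permutation test of Pearson r with 100000 resamples, adjusted over the 34. Counts of passing pairs are for Pearson r. The 3 pairs among Tph2, Slc6a4 and Slc18a2 had Pearson r of 0.97 to 0.99 and Spearman rho of 0.95 to 0.98 in brainstem (permutation p = 1e-05 for each, the smallest these resamples can give, adjusted p = 5.67e-05). Within Q175 libraries alone r was 0.98 to 0.99, within wild-type libraries alone 0.91 to 0.97, and without the 2 libraries farthest from the median 0.96 to 0.98. In the 11 libraries whose names have no D part, r was 0.97 to 0.99. Chat and Slc5a7 gave r = 0.98 and rho = 0.94 in brainstem (permutation p = 1e-05, adjusted p = 5.67e-05), with 0.96 within Q175, 0.99 within wild type and 0.93 without the 2 farthest libraries. The noradrenaline genes were less tightly tied: Dbh and Slc6a2 gave r = 0.85 and rho = 0.86 (permutation p = 3.00e-05, adjusted p = 1.46e-04), Th and Dbh r = 0.78 and rho = 0.72 (adjusted p = 0.00204 by permutation), and Th and Slc6a2 r = 0.63 and rho = 0.62 (adjusted p = 0.0211 by permutation).

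Between systems the ties were looser or were not seen. Of the 9 pairs of a serotonin gene or Slc18a2 with a noradrenaline gene, 6 passed (r from 0.58 to 0.78 for those with Dbh and Slc6a2), and the 3 with Th did not (r = 0.36, 0.40 and 0.48). By Spearman rho, the pairs of Slc6a2 with Slc6a4 (rho = 0.54) and with Tph2 (rho = 0.57) did not pass (adjusted p = 0.0798 and 0.0604 by permutation). Of the 12 pairs of a cholinergic with a monoamine gene, none passed over all 16 libraries (r from 0.016 to 0.49). Within the 8 wild-type libraries these 12 pairs had r from 0.55 to 0.81 and within the 8 Q175 libraries from -0.22 to 0.31, a difference that was not tested. In hypothalamus/thalamus, Th and Slc18a2 gave r = 0.94 and rho = 0.85, Chat and Slc5a7 r = 0.97 and rho = 0.95 (permutation p = 1e-05 for both r), and the 4 pairs between these groups r from -0.16 to -0.026. With Fev added, which lies below 1 CPM, its pairs with Tph2, Slc6a4 and Slc18a2 had r of 0.92, 0.91 and 0.93.

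**Figure D5:**
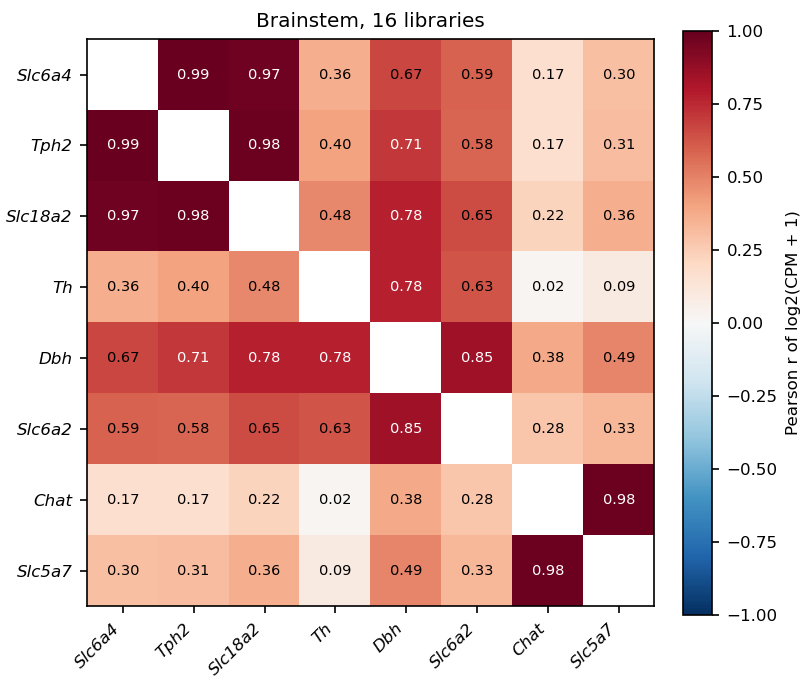
Pearson r of log2(CPM + 1) between 8 genes over the 16 brainstem libraries, in red for positive values. The blocks of Slc6a4, Tph2 and Slc18a2 (0.97 to 0.99) and of Chat and Slc5a7 (0.98) stand out against values of 0.016 to 0.49 between cholinergic and monoamine genes.

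Ratios of counts within a library, with no correction for transcript length, are given for 4 pairs. Across the 16 brainstem libraries Tph2 varied 16.7-fold and Slc6a4 12.6-fold, while the ratio of Slc6a4 to Tph2 counts stayed between 0.476 and 0.951, with medians of 0.716 in Q175 and 0.694 in wild type. The ratio of Chat to Slc5a7 stayed between 0.234 and 0.299 while Slc5a7 varied 3.77-fold. The ratio of Slc18a2 to Tph2 was not so narrow, at 1.05 to 4.75 in Q175 and 0.997 to 1.64 in wild type, and that of Fev to Tph2 ran from 0.0418 to 0.14 and from 0.0306 to 0.0784. The coefficient of variation of Tph2 was 93.8% in Q175 and 40.3% in wild-type libraries, and that of Slc6a4 86.7% and 40.2%. Without Q175 male 2 the values in Q175 were 72.6% for Tph2 and 70.1% for Slc6a4. For Chat it was 25.5% and 31.3%. A difference in spread between genotypes was not tested.

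With the means of the genotype and sex groups removed, the genes most like each member in the 16 libraries of its highest region are given here as a description, for the 8 genes that reach a mean of 1 CPM there. For Tph2 they were Slc6a4 (r = 0.98), Slc18a2 (0.97) and Ddc (0.91), the decarboxylase of the monoamine pathway. For Slc6a4 they were Tph2 (0.98), Slc18a2 (0.95) and Gjd2 (0.90), a neuronal gap junction gene. For Th, in hypothalamus/thalamus, they were Ddc (0.98), Slc18a2 (0.92) and Chrna6 (0.87), a nicotinic receptor subunit of dopamine neurons, and for Slc18a2 in that region Chrna6 (0.93), Th (0.92) and Ddc (0.89). For Chat they were Slc5a7 (0.98), Acly (0.96), which makes cytosolic acetyl-CoA, and Ret (0.95), a neurotrophic factor receptor found in motor neurons. For Slc5a7 they were Chat (0.98), Acly (0.97) and Arhgap36 (0.93). For Dbh they were Gpx3 (0.87), Anxa4 (0.86) and Slc6a2 (0.86), and for Slc6a2 Chrnb4 (0.92), Rab15 (0.92) and Sdr42e1 (0.91). In each case 14650 genes in brainstem or 14782 in hypothalamus/thalamus were compared, and the libraries share dissection, so no test is given.

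The other genes of these pathways were followed as 7 lists fixed by function. Among 19 genes of monoamine synthesis, cofactor supply and breakdown, Qdpr, which regenerates the cofactor of Th and Tph2, fell in brainstem (258 ± 12.7 against 383 ± 56.1 CPM, log2 change -0.57 ± 0.07, adjusted p = 1.08e-04 in edgeR) and in cerebellum (104 ± 7.42 against 136 ± 7.31 CPM, -0.38 ± 0.044, adjusted p = 6.95e-06). Qdpr held 244 to 282 CPM in Q175 against 336 to 497 in wild type in brainstem, and 95.0 to 113 against 124 to 148 in cerebellum. How many of all genes set the genotypes apart in this way was not counted, so these ranges are given as a description. Maoa, a monoamine oxidase, rose in cerebellum (0.11 ± 0.024, adjusted p = 0.00201) and Aldh1a1 fell there (-0.11 ± 0.025, adjusted p = 0.00438). Of the list 1 of 17 tested genes passed in brainstem (3.07% of all genes), 3 of 15 in cerebellum, near the 16.1% of all genes, and none in the other 3 regions. Its median log2 change was -0.095 in brainstem and -0.085 in cerebellum, beside -0.002 and -0.005 over all genes. Oligodendrocyte markers fell in both regions, 6 of 10 in brainstem and 10 of 10 in cerebellum, and their part in the fall of Qdpr was not tested.

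Among 21 transcription factor and peptide genes of monoamine neurons, 0 of 16 passed in brainstem, where 3.07% of all genes passed. Of the 10 tested in cerebellum, Tlx3 rose (0.31 ± 0.092, adjusted p = 0.027 in edgeR) and Aldh1a1, which is also in the list above, fell. There 16.1% of all genes passed. None passed in the other 3 regions. Among 16 genes of cholinergic neuron identity, Ngfr, a neurotrophin receptor, fell in brainstem (2.59 ± 0.356 against 4.85 ± 0.933 CPM, -0.90 ± 0.12, adjusted p = 2.14e-04 in edgeR), as 1 of 15 tested (3.07% of all genes). Slc44a1, a choline transporter-like gene, fell in cerebellum (-0.07 ± 0.024, adjusted p = 0.0357 in edgeR), as 1 of 4 tested (16.1% of all genes). Chat and Slc5a7 did not pass in the same brainstem libraries.

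More receptor genes passed in cerebellum than in the other regions. Of 9 adrenergic receptor genes 2 passed there: Adra2c rose (5.93 ± 0.599 against 3.94 ± 0.424 CPM, 0.58 ± 0.076, adjusted p = 1.83e-05 in edgeR) and Adra2a fell (7.68 ± 0.674 against 9.27 ± 0.716 CPM, -0.27 ± 0.055, adjusted p = 0.0016). Both encode alpha-2 receptors. Adra2c held 5.14 to 6.83 CPM in Q175 and 3.16 to 4.51 in wild type. Of 21 genes of acetylcholine receptors and esterases, 6 of 13 tested passed in cerebellum, 5 of them falls. The nicotinic subunit Chrnb4 fell from 1.84 ± 0.36 to 0.579 ± 0.21 CPM (-1.65 ± 0.19, adjusted p = 6.08e-06), Chrna4 from 8.72 ± 1.1 to 6.51 ± 0.877 CPM (-0.42 ± 0.087, adjusted p = 0.00213) and Chrna3 from 1.34 ± 0.233 to 0.876 ± 0.221 CPM (-0.61 ± 0.16, adjusted p = 0.0112), while Chrna7 rose from 4.76 ± 0.359 to 6.82 ± 0.569 CPM (0.52 ± 0.064, adjusted p = 1.03e-05). The share of all genes that passed was highest in cerebellum too, at 16.1%.

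In hippocampus the muscarinic receptor Chrm1 fell (226 ± 13.5 against 266 ± 13.1 CPM, -0.24 ± 0.043, adjusted p = 0.00534), as did the nicotinic subunit Chrnb1 (-0.48 ± 0.10, adjusted p = 0.0119), 2 of 17 genes tested in that list, where 4.56% of all genes passed. Of 14 serotonin receptor genes, Htr5a rose (16.5 ± 0.795 against 14.4 ± 0.866 CPM, 0.20 ± 0.047, adjusted p = 0.0254) and Htr4 fell (15.6 ± 1.73 against 19.4 ± 2.19 CPM, -0.32 ± 0.079, adjusted p = 0.0304), 2 of 11 tested. In brainstem Bche, butyrylcholinesterase, rose (17.7 ± 1.57 against 14.2 ± 1.39 CPM, 0.32 ± 0.069, adjusted p = 0.0123 in edgeR), as the 1 gene of 18 tested, where 3.07% of all genes passed. None of the 5 dopamine receptor genes passed in any region, and none of these 4 receptor lists held a passing gene in corpus callosum or hypothalamus/thalamus. Median changes of the 4 lists ran from -0.53 for the 3 tested dopamine receptor genes in cerebellum to 0.081 for the serotonin receptor genes in hippocampus, beside -0.005 and 0.012 over all genes.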

How the data were processed

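Estimated counts and FPKM per gene were used as the authors deposited them. Base calling used CASAVA 1.8.2 per the submitters' processing notes, while for aligner, genome build, annotation and strand setting the answer is: not given in the sources used here. Of the brain values 17.6% were not whole, and the estimated counts were rounded. Within each region, edgeR 4.0.16 (R 4.3.3; quasi-likelihood test, TMM scaling, expression filter, sex as a term) compared 8 Q175 with 8 wild-type libraries, with Benjamini-Hochberg adjustment over all genes tested. The 5 regions of wild-type mice were compared with the animal as a block, and the region by genotype test used limma 3.58.1 (voom, animals as a correlation of 0.0875). DESeq2 1.42.0 and limma on log2(FPKM + 1) were alternatives. The code was tested on simulated data. CPM levels share 1 TMM scale over the 80 brain libraries, and summed markers and Abhd1 are plain CPM. The genes, the lists and the tests were chosen with earlier results of these data known. By rule the text names the 10 genes, Htt, up to 4 passing genes per list and region, and the 3 genes most like each of the 8 with a mean of at least 1 CPM. Abhd1, Trh, Gal, Lhx8, Isl1, Slc10a4 and, in hippocampus, Ngfr were named after their values were seen. Each animal gave 1 library per region, so p-values of tests within a region reflect the spread between animals. Those of the wild-type region comparisons, with the animal as a block, reflect the spread within animals. The region by genotype test mixes both kinds of spread.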

Additional observations from a re-analysis of the deposited data

Results flagged for a closer look

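Among 49 groups of 8 libraries whose mean reached 0.5 CPM, 4 held a library set apart from the others by a gap large for the range of its group, a criterion by which chance marks about 1 group in 20. Tph2 stood at 0.29 CPM in cerebellum of wild-type male 2, where the other wild-type libraries held 0.543 to 0.739. Slc18a2 stood at 64.2 CPM in hypothalamus/thalamus of Q175 female 4, where the other Q175 libraries held 26.6 to 40.5. Slc5a7 stood at 36.3 CPM in brainstem of Q175 female 2, against 69.8 to 96.6 in the others. Slc5a7 stood at 6.24 CPM in hippocampus of Q175 male 4, against 0.437 to 1.09 in the others, the library in which Chat and Lhx8 were also highest.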

How the results depend on the processing

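In brainstem the number of the 9 genes that passed was 0 to 1 when single libraries were left out, with 1 only without Q175 male 2. In cerebellum it was 0 to 1 of 3, and 0 with no filter on low counts, in females alone and in males alone. In hippocampus it was 0 of 5 with the replicate block, with the form of the library name as a term, in females alone and in males alone. Htt passed in 1 region rather than 2 with no filter, no sex term, the replicate block, the name form, limma on log2(FPKM + 1) or log2(FPKM + 0.1), females alone or males alone. Of the 9 genes 2 differed by region without the Q175 male with a wild-type Abhd1 level, as did 21.6% of all genes. Of 34 pairs of genes, 15 passed over all libraries, 7 in Q175 libraries alone and 8 in libraries without a D part in the name, the last 2 with fewer samples. For the others the cause was not tested. Signs turned in the following cases. With single libraries left out, brainstem Chat ran from -0.03 to 0.19 and Slc5a7 from -0.08 to 0.16, corpus callosum Slc18a2 from -0.12 to 0.0028, hippocampal Tph2 from -0.12 to 0.01 and Slc5a7 from -0.27 to 0.68, and hypothalamic/thalamic Tph2 from -0.16 to 0.20. In females alone the values were -0.03 (Chat) and -0.04 (Slc5a7) in brainstem, -0.35 (Slc5a7) in hippocampus, and 0.48 (Th) and 0.29 (Slc18a2) in hypothalamus/thalamus. In males alone they were -0.02 (Slc18a2) in cerebellum, 0.30 (Tph2) and 3.4e-04 (Slc18a2) in corpus callosum, 0.14 (Tph2) in hippocampus and -0.39 (Tph2) in hypothalamus/thalamus. With the name form, hippocampal Tph2 was at 0.05, and without the libraries with a length trend hypothalamic/thalamic Tph2 was at -0.19. Of 695 recomputed changes of the genes, 654 kept their sign and their side of the threshold.

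Over all genes, 509 passed in brainstem (282 with the replicate block to 719 with DESeq2), 9 in corpus callosum (0 to 193), 743 in hippocampus (387 with the name form to 1277 with DESeq2) and 96 in hypothalamus/thalamus (12 with the replicate block to 325 with DESeq2). In cerebellum 2572 passed, from 2240 with no filter on low counts to 2744 with DESeq2. Libraries with the same replicate number did not pair: 1 of 8 pairs in brainstem, 3 in cerebellum, 3 in corpus callosum, 3 in hippocampus and 4 in hypothalamus/thalamus had a correlation of deviations over 0.1. Low counts limit Dbh in hippocampus and Fev in brainstem.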

Other observations

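Outside the brain, the genes were read as plain CPM with no test. Skin held the noradrenaline transporter Slc6a2 at 62.7 to 92.2 CPM (median 78.9) in 8 Q175 libraries and 25 to 68.5 (median 44.7) in 6 wild-type libraries. The serotonin transporter Slc6a4 held 29 to 65.2 CPM (median 46) in skin of Q175 mice and 10.7 to 43.7 (median 27.2) in that of wild-type mice. Dbh held 0.969 to 2.18 CPM in heart of Q175 mice and 1.23 to 2.37 in that of wild-type mice. In intestinal white adipose tissue, wild-type female 2 and wild-type male 4 held Slc6a4 at 25.8 and 21.4 CPM and Ddc at 62.8 and 84.3 CPM, where the wild-type median of Slc6a4 was 0.622 CPM.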
